A study of Mus musculus with 2 samples.

Results

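Accessible chromatin was described at 10 mouse genes that encode RNA-binding proteins of neuronal splicing and mRNA control: Rbfox1, Rbfox2, Rbfox3, Celf2, Celf4, Nova1, Nova2, Elavl3, Elavl4 and Ptbp2. They were chosen by name, by a rule that uses no measured value, from the 21938 protein-coding genes of GENCODE M21. Earlier results of these data were known when that choice was made. The assay was DNase-seq, in which the enzyme DNase I cuts DNA that is not covered by nucleosomes, so that accessible stretches appear as peaks of cuts and bound proteins within them as short protected footprints. The tissue was the right cerebral cortex of female adult B6CASTF1/J mice, the F1 cross of C57BL/6J with CAST/EiJ, aged 18 to 20 months, with no treatment listed. There were 2 biological replicates in 1 group, so values are given for each replicate and no comparison between conditions exists. The labels list the replicates as separate biosamples but give both the same donor identifier. No label assigns them to different animals, so their spread may be technical in part. In this bulk tissue, accessibility in fewer cells and lower accessibility per cell cannot be told apart.

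The proteins act on RNA through short sequence elements. RBFOX proteins bind UGCAUG in introns and shift exon inclusion according to which side of the exon they bind, NOVA proteins bind YCAY clusters, and CELF proteins bind GU-rich elements. The neuronal ELAVL (Hu) proteins bind AU-rich and U-rich stretches and affect both splicing and mRNA stability. PTBP2 binds pyrimidine-rich tracts and replaces its relative PTBP1 as neurons differentiate, and RBFOX3 is the antigen NeuN used to stain neuronal nuclei. Many of these genes use alternative first exons, so the annotated start sites were examined separately.

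The main peak lists held 86601 peaks in replicate 1 and 88482 in replicate 2, with median values of 0.721 and 0.999. Peak values are the deposited signal, whose normalization the sources used here do not give. All values were whole multiples of 1 step, within 0.05 steps, which as 1 read scaled to reads per M (M for mega) would correspond to 201 M reads in replicate 1 and 112 M in replicate 2. On that inferred scale the median peak held 145 and 112 reads. Promoters of the neuronal markers Snap25, Syt1, Tubb3, Stmn2, Syn1 and Map2 had a peak in both replicates in 6 of 6 cases, with values from 1.71 to 3.51. The count was 3 of 6 for markers of excitatory neurons, 1 of 6 for inhibitory neurons, 2 of 5 for astrocytes, 2 of 5 for oligodendrocytes, 0 of 5 for microglia and 0 of 5 for endothelium. It was 0 of 5 for hepatocyte markers and 1 of 5 for muscle markers, where Mylpf had 4.27.

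All 10 genes showed promoter peaks in each replicate (10 of 10), where a promoter reaches 500 bp upstream and downstream of every start site in the annotation. The share was 57.9% over all protein-coding genes, with 12692 of 21938. Among genes of 100 kb or more it was 7 of 7 members and 81.8% of the other 2485 genes. The members also have more start-site groups in which a peak can fall, a median of 5.5 against 2 over all genes. The value of a promoter is that of its strongest peak. Its median was 1.81 over the 10 genes and 2.71 over all protein-coding genes with a promoter peak in both replicates. Members of 100 kb or more had a median of 1.73, against 1.94 in other genes of that length, so low promoter values were also seen in long genes generally. Nova2 had the highest value, at the 81.3rd percentile of accessible promoters, followed by Nova1 at the 70.3rd and Rbfox2 at the 59.5th. The other 7 genes lay between the 13.0th percentile of Rbfox3 and the 34.9th of Elavl3.

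**Figure D1:**
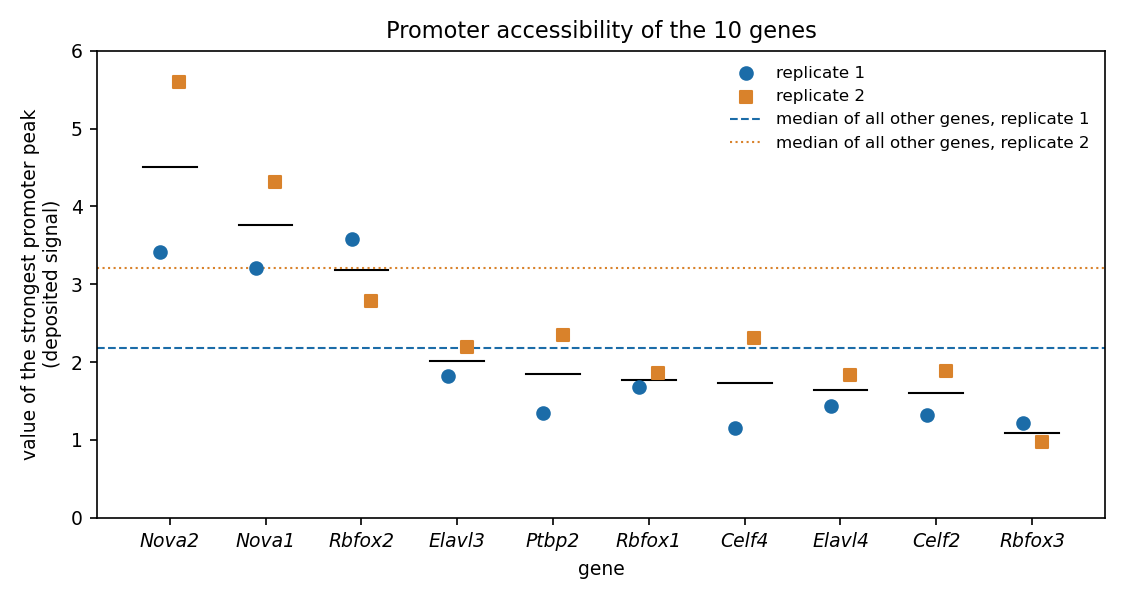
Value of the strongest promoter peak (deposited signal, y axis) for each gene (x axis) in replicate 1 (circles) and replicate 2 (squares), with the mean of both as a black bar. The dashed and dotted lines are the medians of all other accessible protein-coding genes, 2.19 in replicate 1 and 3.21 in replicate 2. Nova2 and Nova1 lie above both lines in the matching replicate, Rbfox2 lies above the line in replicate 1 alone, and the other 7 genes lie below it in each replicate.

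The 10 genes have 92 annotated start sites from 106 transcripts, which form 51 groups when start sites with overlapping windows are joined. Of these groups, 16 (31.4%) had a peak in both replicates, against 29.7% over all protein-coding genes, so the share was near the background. In the main lists, a further 5 had a peak in replicate 1 only, 1 in replicate 2 only and 29 in neither. Nova2 has a single group. Of the other 9 genes, 4 (44.4%) were accessible at 2 or more groups in both replicates, which are Rbfox1, Rbfox2, Celf2 and Elavl4. The share among all genes with at least 2 groups was 11.9%, with 1471 of 12355. However, the 10 members have more groups to count, a median of 5.5 against 2 over all genes. Both medians include genes with a single group, and the median of the 12355 genes was not taken. Of the 29 groups without a peak, 24 (82.8%) also had no interval of elevated cutting at a false discovery rate (FDR) under 0.05 in either replicate, against 91.2% over all genes.

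Rbfox1 encodes an RBFOX splicing regulator of neurons and muscle and spans 1526 kb at chr16:5885355-7411526 on the plus strand (mm10). It was accessible at 3 of 7 start-site groups. The most upstream group had 1.06 in replicate 1 and 1.24 in replicate 2. A second group 464 kb downstream of it had 1.37 and 1.80, and a further one at 1308 kb had 1.67 and 1.86. The strongest start was thus an internal one, and replicate 2 was the higher at all 3. The internal start at 1308 kb also differed in base composition, with 4 CpG dinucleotides in its 300-bp window against 20 at each of the other accessible starts of the gene. The 4 remaining groups had no peak in either main list.

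Rbfox2, a more widely expressed RBFOX paralog, spans 228 kb at chr15:77078990-77307004 on the minus strand and was likewise accessible at 3 of 7 groups. Values in replicates 1 and 2 were 2.06 and 2.36 at the most upstream group, 3.58 and 2.78 at 61.4 kb, and 1.45 and 1.33 at 153 kb. The middle start was the strongest in both replicates, and both internal starts were higher in replicate 1. The exact 95% Poisson intervals on the inferred read counts, which cover counting error only, were 3.32 to 3.85 in replicate 1 and 2.48 to 3.11 in replicate 2 at the strongest start. The CpG counts were 32 at the upstream start and 4 and 5 at the internal ones. The strongest start is shown because it holds the 1 match, among the 13 short consensus sequences in the first search, that lay inside a footprint shared by both replicates in the 300-bp windows at the 16 accessible starts. That match is the RFX core site GTTGCC, whose first base lies 19 bp upstream of a start site. The sequence is chr15:77245557-77245790 on the minus strand of GRCm38.p6 (the assembly called mm10), with bases inside shared footprints in capitals.
Rbfox2 internal promoter: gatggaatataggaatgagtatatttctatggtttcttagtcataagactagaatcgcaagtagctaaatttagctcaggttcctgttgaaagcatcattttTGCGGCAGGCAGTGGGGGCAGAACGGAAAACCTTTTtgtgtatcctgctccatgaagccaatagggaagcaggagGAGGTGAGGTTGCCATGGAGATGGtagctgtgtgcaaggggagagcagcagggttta

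Rbfox3 encodes NeuN and spans 422 kb at chr11:118489762-118911597 on the minus strand. Its mean promoter value was the lowest of the 10 genes, with 1.21 in replicate 1, where Celf4 was lower at 1.16, and 0.972 in replicate 2. These values came from different start sites. Peaks in replicate 1 only were found at the 2 most upstream groups, the stronger with 1.21, and at a group 151 kb downstream, with 0.964. The longer peak list of replicate 2 held 1.46 and 1.12 at the second and the 151-kb group, so there the replicates differed by whether a peak entered the main list. The group at 342 kb had a peak in both, 0.522 and 0.972. The 0.522 peak did not overlap that of replicate 2, and a weaker peak of replicate 1 at 0.462 did.

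Nova1 and Nova2 encode the NOVA splicing regulators of neurons. Nova1 spans 124 kb at chr12:46694517-46818929 on the minus strand and had 3.21 in replicate 1 and 4.32 in replicate 2 at its upstream start, while its other 2 groups had no peak. Nova2 spans 39.4 kb at chr7:18925888-18965319 on the plus strand and had 3.41 and 5.60. Both strongest peaks lay upstream of the annotated 5′ end. The midpoints were 612 and 622 bp upstream in replicates 1 and 2 for Nova1, and 528 bp in both for Nova2. Because of that distance, 1 of the 6 shared footprints of the Nova1 window and 0 of the 2 in Nova2 reached within 500 bp of a start site. With windows of 100 bp instead of 500 bp, Nova2 was the only 1 of the 10 genes without a promoter peak in both replicates. The Nova1 value also depends on the window, which ended at position 46819429. Its strongest peaks began at 46819401 in replicate 1 and 46819421 in replicate 2, so they overlapped the window by few bases. The group held 5 peaks in replicate 1 and 4 in replicate 2. The Nova1 peak held 6 shared footprints covering 148 of 300 bases, the most of the promoter sequences shown here. Both windows are printed for their footprints: chr12:46819391-46819690 on the minus strand for Nova1 and chr7:18925211-18925510 on the plus strand for Nova2, with footprint bases in capitals. In Nova2 both footprints contained the KLF-type string GGGCGTGGC, 525 and 569 bp upstream of the start site. That string was added after the sequences were seen, and 759 of the 12648 strongest promoter windows of all genes held it, 548 of them inside a shared footprint.
Nova1 promoter: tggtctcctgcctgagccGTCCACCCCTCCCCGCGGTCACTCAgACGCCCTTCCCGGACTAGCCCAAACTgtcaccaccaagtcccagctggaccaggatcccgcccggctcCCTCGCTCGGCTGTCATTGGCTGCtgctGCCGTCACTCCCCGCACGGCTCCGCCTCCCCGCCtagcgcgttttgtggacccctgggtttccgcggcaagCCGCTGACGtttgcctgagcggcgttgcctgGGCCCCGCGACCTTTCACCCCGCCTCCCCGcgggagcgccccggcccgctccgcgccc
Nova2 promoter: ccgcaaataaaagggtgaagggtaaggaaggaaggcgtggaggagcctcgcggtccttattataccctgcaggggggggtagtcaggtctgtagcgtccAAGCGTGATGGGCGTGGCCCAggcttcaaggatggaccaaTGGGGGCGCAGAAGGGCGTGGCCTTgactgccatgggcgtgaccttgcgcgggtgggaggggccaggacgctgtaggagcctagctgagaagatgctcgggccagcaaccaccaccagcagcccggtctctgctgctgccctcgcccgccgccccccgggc

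Elavl3 and Elavl4 encode the neuronal proteins HuC and HuD. Elavl3 spans 37.0 kb at chr9:22015005-22052023 on the minus strand and had 1.82 in replicate 1 and 2.19 in replicate 2 at its upstream start and no peak at the other group. Elavl4 spans 148 kb at chr4:110203722-110351909 on the minus strand and was accessible at 2 of 6 groups. Its upstream start had 0.979 and 1.84, and the group at 64.4 kb had 1.44 and 1.52. The stronger of the 2 starts was therefore the internal one in replicate 1 and the upstream one in replicate 2. A group between them, at 61.0 kb, had 0.686 in the main list of replicate 1 only, and the longer list of replicate 2 gave 0.838. The upstream start held 39 CpG in its window and the internal one 6. Elavl3 is shown because its 1 shared footprint encloses TATAAA, with the first base 33 bp upstream of a start site. TATAAA was also chosen after the sequences were seen, and 3.93% of all promoter windows held it, 0.546% of all windows inside a shared footprint. The sequence is chr9:22051994-22052220 on the minus strand of mm10, with footprint bases in capitals.
Elavl3 promoter: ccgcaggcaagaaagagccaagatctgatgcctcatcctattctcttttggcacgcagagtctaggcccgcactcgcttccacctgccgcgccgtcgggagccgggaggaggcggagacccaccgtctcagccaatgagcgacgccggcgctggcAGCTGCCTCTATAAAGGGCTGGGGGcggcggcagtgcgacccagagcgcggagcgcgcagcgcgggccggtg

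Ptbp2, the neuronal polypyrimidine tract binding protein, spans 65.7 kb at chr3:119718742-119784466 on the minus strand. Its upstream group of 8 start sites had 1.35 in replicate 1 and 2.35 in replicate 2, and the other 4 groups had no peak. The intervals from counting error were 1.19 to 1.52 and 2.08 to 2.66 and did not overlap. They are not adjusted for the generally higher values of replicate 2. The log2 difference, replicate 1 minus replicate 2, was −0.81 at Ptbp2 and had a median of −0.50 over all accessible genes. The window was GC-rich, at 74.3% with 44 CpG. Shown here are 30 bases around a start site, chr3:119783268-119783297 on the minus strand, because a shared footprint there encloses the core GCCATTTT of the YY1 site (AAAATGGC on the other strand, likewise chosen afterwards and present in 2.06% of all promoter windows). Footprint bases are in capitals.
Ptbp2 start site: GGGCCCTGGCCGCCATTTTCTCGccgcttg

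Celf2 encodes a CELF splicing and translation regulator and spans 970 kb at chr2:6539694-7509563 on the minus strand. It was accessible in both replicates at 2 of 8 groups, both far inside the gene. The group at 637 kb had 1.05 in replicate 1 and 1.70 in replicate 2, and that at 787 kb had 1.32 and 1.89. The most upstream group, which belongs to a noncoding transcript, had no peak in either, and the group at 113 kb had 1.03 in replicate 2 and no main-list peak in replicate 1, whose longer list gave 0.636. The accessible starts differed in sequence, with 52 CpG and 82.0% GC at 637 kb and 5 CpG and 46.7% GC at 787 kb. Celf4, its brain-enriched paralog, spans 277 kb and had 1.16 and 2.31 at its upstream group. A neighbouring group of Celf4 at 1.47 kb had 0.691 in the main list of replicate 1 only, and the longer list of replicate 2 gave 0.731. That replicate 1 peak also reached into the window of the upstream group. The remaining 3 groups of Celf4 had no peak.

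Within the gene bodies, 105 regions were accessible in both replicates outside the 500-bp windows of any gene's start sites. Of these, 103 were intronic and 2 exonic. Rbfox1 had 34, Rbfox3 22, Celf2 17, Celf4 16, Rbfox2 10, Elavl4 3, Nova2 2 and Elavl3 1, the last also inside the overlapping gene model Gm49318. Nova1 and Ptbp2 had 0. Rbfox1 ranked 17 and Rbfox3 51 among all protein-coding genes by this count. The genes are long, with a median length of 188 kb against 17.4 kb over all genes, so the counts were also set against length. Per 100 kb, Celf4 had 5.79 regions, Rbfox3 5.22, Nova2 5.07, Rbfox2 4.39, Elavl3 2.70, Rbfox1 2.23, Elavl4 2.02 and Celf2 1.75. The median of the 7 members of 100 kb or more was 2.23 per 100 kb, and that of the other 2485 genes of that length was 2.09. Celf4 lay at the 95.3rd and Rbfox3 at the 92.7th percentile of long genes, while Rbfox1 lay at the 53.3rd and Celf2 at the 40.4th. Nova1 was among the 9.50% of such genes without any gene-body region. These ranks and percentiles rest on the counts above, which depended on the peaks used. With the longer peak list Rbfox1 had 85 regions, Rbfox3 39, Celf2 38, Celf4 26, Elavl4 7 and Nova1 1. With replicate 1 alone Rbfox1 had 65, Rbfox3 35, Celf4 28, Celf2 27 and Elavl4 7, and with replicate 2 alone Celf2 had 26. With the stronger 50% of peaks Rbfox1 had 18, Rbfox2 6 and Elavl4 1. With start-site windows of 100 bp Ptbp2 had 1, and with windows of 2000 bp Elavl3 had 0.

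**Figure D2:**
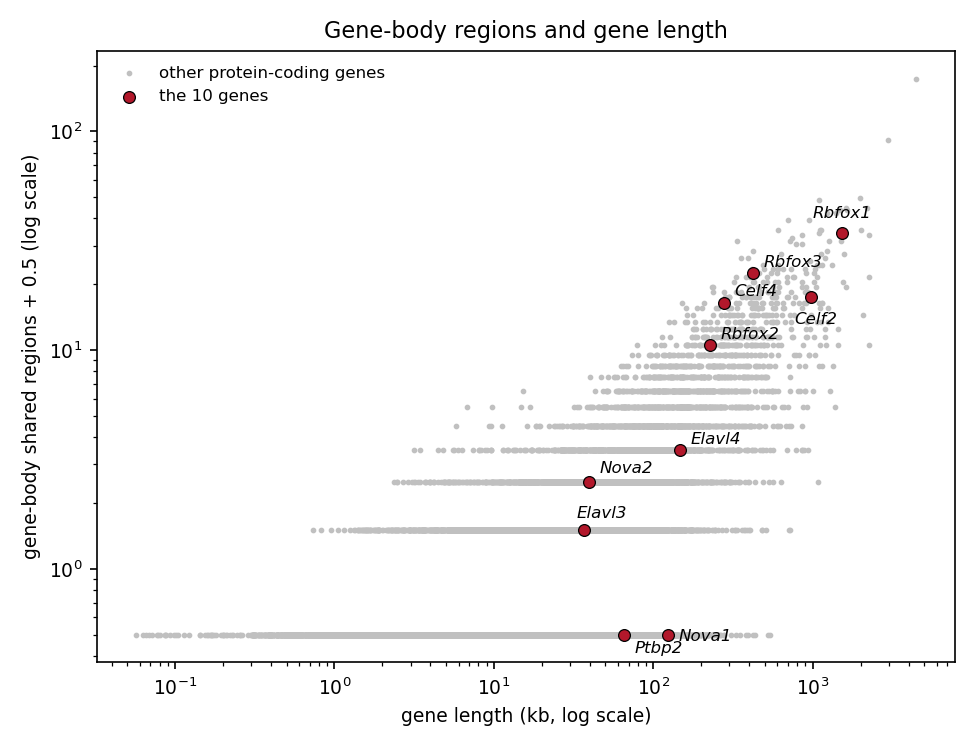
Number of gene-body regions accessible in both replicates plus 0.5 (y axis, log scale) against gene length in kb (x axis, log scale) for the 10 genes (large points) and all other protein-coding genes (grey). Counts rise with length over all genes. Rbfox3 and Celf4, with 22 and 16 regions, sit near the upper edge for their length, Celf2 with 17 and Rbfox1 with 34 sit within the cloud, and Nova1 and Ptbp2 are at 0 regions.

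When each gene was cut into 3 equal parts, 37 of the 105 regions lay in the 5′ part and 33 in the 3′ part. The 5′ and 3′ parts held 11 and 10 in Rbfox1, 8 and 7 in Rbfox3, and 3 and 5 in Rbfox2. Celf2 had more in its 5′ part, 9 against 2, and Celf4 more in its 3′ part, 7 against 3. In Rbfox1 the median gap between neighbouring regions was 30.1 kb and the longest was 157 kb, between 1215 and 1372 kb from the 5′ end. Celf2 had the longest gap, 184 kb, from 275 to 458 kb. Neighbours were closer in Celf4, with a median gap of 10.3 kb, and in Rbfox3, with 14.5 kb. Rbfox3 nevertheless had a stretch of 99.7 kb without a region, from 231 to 330 kb. Rbfox2 regions gathered around its internal start at 153 kb, with 4 of its 10 between 154 and 157 kb.

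**Figure D3:**
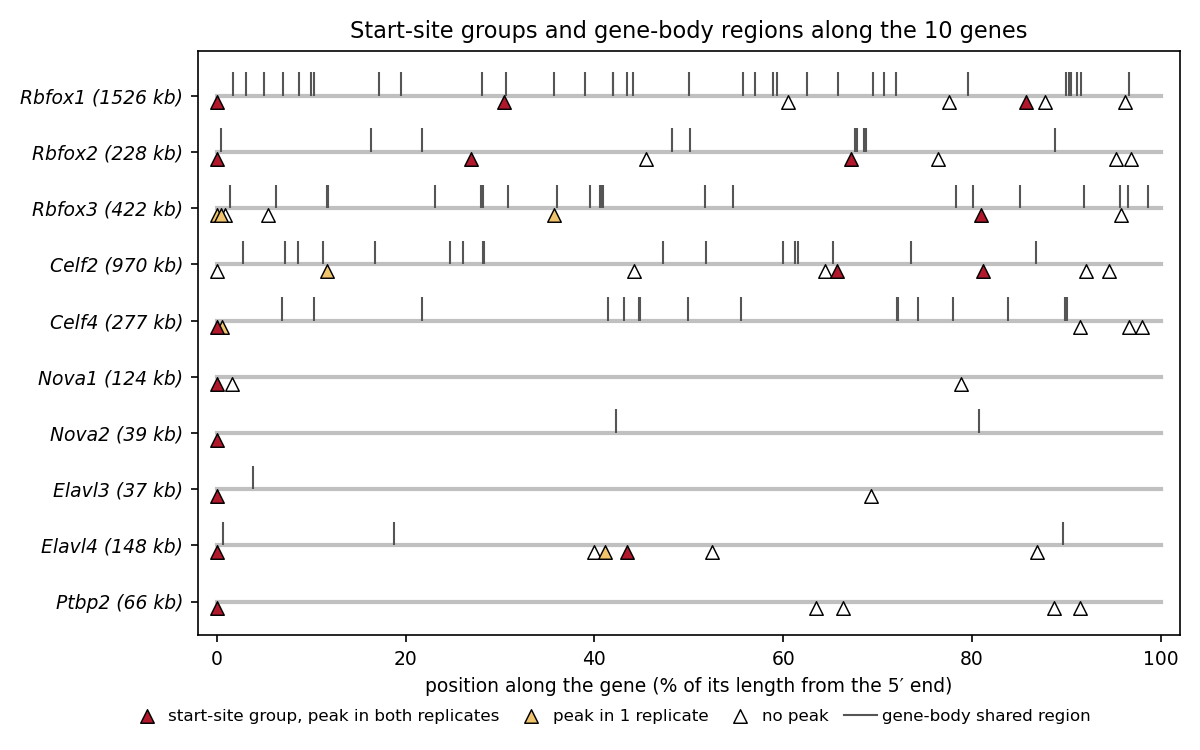
Start-site groups (triangles) and gene-body regions accessible in both replicates (vertical ticks) along each gene, as percent of its length from the 5′ end (x axis). Dark triangles mark the 16 groups with a peak in both replicates, light ones the 6 with a peak in 1 replicate and white ones the 29 without, and neighbouring triangles at the 5′ end of Rbfox3 and Celf4 overlap. Ticks are most numerous in Rbfox1, with 34, Celf2 has 9 of 17 in its 5′ part of 3, Celf4 has 7 of 16 in its 3′ part, and Nova1 and Ptbp2 have none.

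Gene-body regions of the 10 genes had median values of 1.04 in replicate 1 and 1.28 in replicate 2, against 0.795 and 1.11 over the 22861 regions in all protein-coding gene bodies. In Rbfox1 the 34 regions ranged from 0.427 to 1.81 in replicate 1 and from 0.455 to 3.99 in replicate 2. The Rbfox3 medians were 1.00 and 1.75, and the Celf4 medians 1.15 and 1.56. In 4 genes the strongest intronic region exceeded the strongest promoter peak in both replicates. These values were 2.96 and 4.02 in Celf2, 2.40 and 3.46 in Rbfox3, and 1.77 and 3.99 in Rbfox1. In Celf4 the region at chr18:25694044-25694340 had 2.80 and 2.32, against 1.16 and 2.31 at its promoter, so in replicate 2 they were level. Rbfox2 reached 1.74 and 1.87, Nova2 1.44 and 1.77, Elavl3 1.17 and 1.51 and Elavl4 1.34 and 1.16, which in each of these 4 genes is below the promoter value. The replicates were far apart at the strongest Rbfox1 region, with an SD of 1.57, and closer at that of Celf4, with 0.339.

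Rbfox3 thus combined a low promoter value with a series of stronger intronic regions. A region at chr11:118905761-118906036, 5.70 kb from the 5′ end, had 1.96 in replicate 1 and 2.18 in replicate 2. The stronger of 2 adjacent regions near 49.3 kb had 1.77 and 1.95. The pair with the highest values lay at 118 and 119 kb, with 2.40 and 3.46 at chr11:118793601-118793860 and 2.69 and 2.92 at chr11:118792621-118792880. Regions at 152 and 173 kb reached 2.21 and 2.66, and 1.92 and 2.93. Each of these lay above both replicates' promoter values. Replicate 2 was the higher at 22 of 22 Rbfox3 regions, and at 30 of 34 in Rbfox1, 13 of 16 in Celf4, 9 of 10 in Rbfox2 and 8 of 17 in Celf2. Over the 105 regions it was the higher at 87 (82.9%), near the 81.2% of all regions outside promoter windows.

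Although the replicates' total numbers of peaks were similar, replicate 1 had 178 peaks in the bodies of the 10 genes and replicate 2 had 131, a ratio of 1.36. The ratio was 1.05 over genes of 100 kb or more and 1.01 over all protein-coding genes. Of the replicate 1 peaks in the 10 genes, 59.0% overlapped a replicate 2 peak, and of the replicate 2 peaks 81.7% overlapped 1 of replicate 1. Over genes of 100 kb or more these shares were 71.0% and 74.6%. Rbfox1 had 65 and 44 peaks in replicates 1 and 2, Celf4 28 and 17, and Rbfox3 35 and 26, while Celf2 had 27 and 26 and Rbfox2 12 and 12. Replicate 1 is also the deeper library on the inferred scale. The part of depth in this difference was not tested.

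The strongest intronic regions of Celf2, Rbfox3 and Rbfox1 are shown because they exceeded the genes' own promoter peaks in both replicates. At Rbfox1 the excess in replicate 1 was within counting error. Celf2 was chosen as the strongest gene-body region of all 10 genes, and the others after their values were seen. The windows are chr2:7270061-7270360 for Celf2, 239 kb from its 5′ end, and chr11:118793581-118793880 for Rbfox3, both on the minus strand, and chr16:6018711-6019010 for Rbfox1 on the plus strand, 134 kb from its 5′ end. Bases inside shared footprints are in capitals. In Rbfox3 a single footprint encloses the EGR site GCGTGGGCG and the neuronal bHLH E-box CAGATGG, both read on the other strand, and the region overlaps the last exon of the noncoding gene Gm11750. In Rbfox1 a footprint encloses the CTCF core AGGGGGC, also on the other strand. Celf2 has 3 footprints and none of them holds a listed consensus.
Celf2 intronic region: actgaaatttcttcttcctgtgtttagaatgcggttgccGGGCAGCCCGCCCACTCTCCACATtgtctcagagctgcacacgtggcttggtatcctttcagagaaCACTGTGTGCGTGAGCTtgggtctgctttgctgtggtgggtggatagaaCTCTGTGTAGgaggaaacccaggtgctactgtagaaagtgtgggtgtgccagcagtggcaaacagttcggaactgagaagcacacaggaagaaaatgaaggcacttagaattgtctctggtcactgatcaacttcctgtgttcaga
Rbfox3 intronic region: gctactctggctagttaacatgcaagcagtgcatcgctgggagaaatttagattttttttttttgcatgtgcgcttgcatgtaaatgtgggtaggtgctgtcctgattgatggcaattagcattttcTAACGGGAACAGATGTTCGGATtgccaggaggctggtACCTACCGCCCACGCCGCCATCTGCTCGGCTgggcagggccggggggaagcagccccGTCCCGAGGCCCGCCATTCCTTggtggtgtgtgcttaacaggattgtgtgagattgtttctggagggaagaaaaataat
Rbfox1 intronic region: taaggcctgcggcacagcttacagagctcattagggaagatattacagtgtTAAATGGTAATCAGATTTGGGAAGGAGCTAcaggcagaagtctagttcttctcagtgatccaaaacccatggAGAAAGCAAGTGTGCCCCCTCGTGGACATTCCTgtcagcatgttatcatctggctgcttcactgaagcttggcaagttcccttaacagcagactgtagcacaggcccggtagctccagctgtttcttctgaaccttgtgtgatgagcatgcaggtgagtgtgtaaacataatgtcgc

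Outside the genes, 59 regions accessible in both replicates lay within 100 kb of either gene end and away from start sites, 33 upstream and 26 downstream. The median was 5.5 per gene against 4 over all protein-coding genes. For 27 of the 59 the member had the nearest protein-coding start site, and 9 lay inside another protein-coding gene. Rbfox2 had 16, Rbfox3 10, Nova2 7, Elavl3 7, Celf4 6, Celf2 5, Nova1 3, Elavl4 3, Rbfox1 1 and Ptbp2 1. Upstream of Rbfox2, 6 regions lay between 49.3 and 61.3 kb from its 5′ end, all with Apol7a as the nearest start. The strongest, at chr15:77368241-77368460, had 2.96 in replicate 1 and 5.66 in replicate 2, above the Rbfox2 promoter in replicate 2 only. At Nova2 2 regions stood close upstream, at 2.82 kb with 2.94 and 3.32 and at 4.58 kb with 2.28 and 2.76, and Nova2 was the nearest gene to both. Rbfox1 and Ptbp2 had few, a single region of 1.59 and 1.40 at Rbfox1 and of 0.427 and 0.419 at Ptbp2.

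Footprints were listed by the authors for each replicate, 307092 in replicate 1 and 279769 in replicate 2. Within 500 bp of the start sites of the 10 genes, 44 footprints were shared by both replicates, of which 35 also overlapped a main-list peak of each replicate. In the gene-body regions, 143 were shared. The 186 shared footprints in accessible regions that lay between the gene ends or within 500 bp beyond them, which leaves out most of those in the upstream Nova1 and Nova2 peaks, had a median width of 18 bp, and 25 held at least 1 of the 13 short consensus sequences. In the gene-body regions, 51.3% of replicate 1 footprints and 51.4% of replicate 2 footprints overlapped 1 of the other replicate, against 54.7% and 53.3% over all shared regions. A shared footprint was present in 79.0% of the 105 gene-body regions and 75.1% of those of all genes. Rbfox1 had 40 such footprints, Rbfox3 37, Celf2 24 and Celf4 21. At Rbfox3, where the promoter had 2, a region at 49.3 kb alone held 6.

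Short consensus sequences were searched on both strands of 300-bp windows centred on each region. The neuronal bHLH E-box CAGATGG was found in 31 of the 105 gene-body windows (29.5%), against 17.3% of gene-body windows of all genes, and inside a shared footprint in 6.67% against 5.13%. The AP-1 site TGANTCA was in 19.0% against 18.8%, the RFX core site in 13.3% against 12.6%, the REST left arm CAGCACC in 8.57% against 8.59%, and the CTCF core in 8.57% against 7.31%. The E-box was thus the consensus with the widest gap in share, and the others listed here were near the background. At the 16 accessible start-site groups, GTTGCC was in 3 windows (18.8% against 14.2% of the strongest promoter windows of all genes) and CAGATGG in 2 (12.5% against 3.70%). The 16 windows can include several starts of a gene, while the background took only the strongest window of each gene. Both CAGATGG windows were at internal starts, Rbfox2 at 153 kb and Elavl4 at 64.4 kb. The GC box GGGGCGGGG was in 1 (6.25% against 22.1%). No window held the NRF1 core GCATGCGC, found in 6.42% of all promoter windows, the CRE TGACGTCA, found in 4.27%, or the CTCF core, found in 17.6%. The CTCF core did lie in shared footprints outside these windows, 39 bp from a start site of Elavl4 and 462 bp from one of Rbfox1. Median GC content was 66.7% in the 16 windows and 64.3% in all promoter windows. A match describes letters in the window and not binding of a factor.

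**Figure D4:**
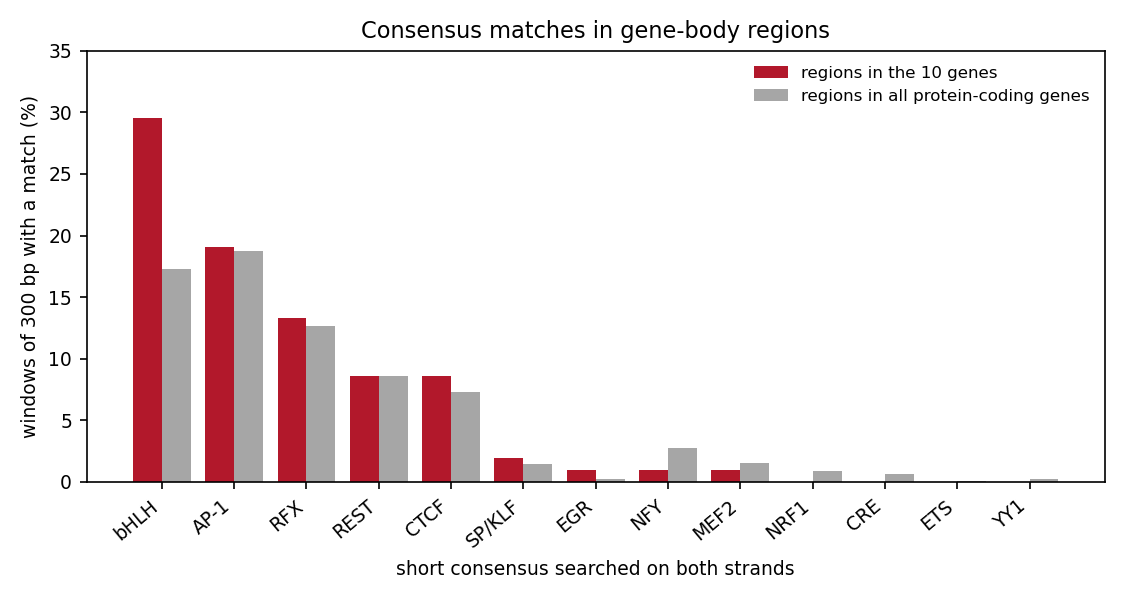
Share of 300-bp windows with a match to each short consensus (y axis, percent) in the 105 gene-body regions of the 10 genes (dark bars) and in 22861 gene-body regions of all protein-coding genes (grey bars). The E-box CAGATGG, labelled bHLH, was in 29.5% and 17.3%, and AP-1 in 19.0% and 18.8%.

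The promoters of the 10 genes were also set beside fixed lists of other RNA-binding genes. All 8 family relatives outside the group were accessible in both replicates, with a median promoter value of 4.29 against 1.81 for the 10 genes. Ptbp1, the widely expressed relative of Ptbp2, had 6.27, Elavl1, the ubiquitous HuR, had 5.44, and Elavl2, a neuronal Hu protein, had 5.19. Other neuronal or muscle splicing regulators were accessible in 13 of 14 cases with a median of 2.47, led by Mbnl2 with 4.30, Khdrbs1 with 3.77 and Khdrbs2 with 3.64, and Msi1 had no peak. General splicing factors were accessible in 15 of 15 cases with a median of 4.57, led by Hnrnpc with 10.2. The epithelial regulators Esrp1 and Esrp2 had no promoter peak in either replicate. By gene-body regions, not adjusted for length, 6 of the 8 relatives had 0 or 1, as did Nova1, Ptbp2 and Elavl3 of the 10 genes. At 3 or more were 6 of the 10 genes and, of the relatives, Celf1 with 6. Over all protein-coding genes, 65.0% had 0.

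Between the replicates, the median log2 difference of promoter values, replicate 1 minus replicate 2, was −0.39 over the 10 genes and −0.50 over all accessible genes. Replicate 2 was the higher at 8 of 10 (80.0%), and at 93.5% of all accessible genes. Rbfox2 and Rbfox3 went the other way, by 0.36 and 0.32. For Rbfox3 and Elavl4 the peaks compared were at different start sites. Within single Rbfox3 groups, replicate 2 was the higher at 342 kb, with 0.972 against 0.522. Its longer list was also higher at the second group, 1.46 against 1.21, and at 151 kb, 1.12 against 0.964. At the most upstream Rbfox3 group replicate 2 had no peak in either list. Celf4 had the widest gap, −0.996, followed by Ptbp2 with −0.81 and Nova2 with −0.72. Once the median of all accessible genes was subtracted, the widest gaps were those of Rbfox2, 0.86, and Rbfox3, 0.82. Celf4 then had −0.50, Ptbp2 −0.31 and Nova2 −0.22. With 2 replicates these gaps are given as values and were not tested.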

How the data were processed

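DNase-seq of 2 libraries was analysed from the files the authors deposited, in mm10 coordinates per the labels. The peak caller, aligner and software versions are not named in the sources used here. Peak values are a signal deposited per peak, and each library has 2 peak lists, of which the shorter was used. Intervals of the cut-rate lists carry an FDR (q-value) that the authors deposited, listed below 0.05, and footprints were deposited at an FDR p-value threshold of 0.01. Reads were placed on mm10 although the mice carry CAST alleles, and the effect on peaks was not tested. Genes came from GENCODE M21 and sequence from the RefSeq copy of GRCm38.p6, where 0 chromosomes held an interval beyond the reference end. Peaks of both libraries that overlapped by at least 1 bp were merged, and merged regions with a peak of each were called accessible in both. Distal regions lay within 100 kb of a gene end and may belong to other genes. Footprints were shared at 1 bp of overlap. The count near start sites also required a peak of each library over the footprint, which the rule as first written did not state. Sequences were trimmed to at most 30 bases of annotated UTR, and capitals mark shared footprint bases, not motif matches as first planned, since 1 planned match lay in a footprint of the promoter windows. The overlap code was tested on simulated intervals (Python 3.11.15, pandas 2.3.3). The members, gene lists and 13 motifs were chosen with earlier results of these data known, and 3 motifs were added after sequences were seen. All 10 members are named, with their strongest regions, and of the related lists the 3 highest promoters and up to 4 genes without a peak. Alternatives varied the peak list, peak strength, windows, overlap, distance, start-site annotation and the replicates used. With 1 group, no test was made.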

Additional observations from a re-analysis of the deposited data

How the results depend on the processing

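Of 49 recomputed values over all 10 genes, 39 stayed within 1.5 times the value given or within the spread between replicates, and 10 moved beyond it. The spread was used for the median promoter value and came from the medians of the same 2 replicates. Its settings with 1 replicate alone, 2.25 and 1.56, could therefore hardly count as moved. The gene-body total of 105 regions became 215 with the longer peak list, and 131 to 178 with 1 replicate alone. The distal total of 59 became 39 with the stronger 50% of peaks and 32 within 50 kb. Shared footprints near start sites that overlapped a peak of each replicate, 35, became 44 with no peak required, an alternative chosen after seeing the data, 17 with windows of 100 bp, 56 with windows of 2000 bp and 87 to 92 with 1 replicate alone. Those in gene bodies, 143, became 306 to 427 with 1 replicate alone, where no sharing is required. The count of genes with a promoter peak was 9 or 10 throughout: Rbfox3 lost it with the stronger 50% of peaks and Nova2 with windows of 100 bp. Accessible start-site groups ranged from 15 to 22, though the number of groups also changes with the window. For single genes, 173 of 220 values stayed and 47 moved. No paired analysis was possible because there is 1 group. Depth per library is inferred. At a start site without a peak, lack of accessibility and lack of detection at that depth cannot be told apart.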

Other observations

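Some genes of the lists set beside the 10 genes, chosen here after their values were seen, also carried several gene-body regions. Khdrbs2 had 11, Msi2 10, Mbnl2 8 and Srrm4 8, and Syt1, the synaptic vesicle calcium sensor, had 10, while 14 of 15 general splicing factors had 0. These counts were not adjusted for gene length, and Khdrbs2 spans 486 kb. Over all protein-coding genes, 65.0% had 0. Cx3cr1, a microglial receptor gene without a promoter peak in both replicates, had 9 gene-body regions. The internal starts of Rbfox1 at 1308 kb, Rbfox2 at 61.4 and 153 kb, Celf2 at 787 kb and Elavl4 at 64.4 kb each held 4 to 6 CpG in 300 bp. The median was 25 over all genes, where only the strongest promoter window of each gene was taken. The remaining 11 accessible start-site windows of the 10 genes held 19 to 52. These include other internal starts, Celf2 at 637 kb with 52, Rbfox3 at 342 kb with 28 and Rbfox1 at 464 kb with 20. Nothing was tested on these values.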
